A study of Homo sapiens with 6 samples.

Results

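Lysosomes are acidic organelles in which hydrolases break down proteins, glycans, glycogen and lipids. A proton pump, the V-ATPase, acidifies them, and a glycoprotein-rich membrane encloses them. The related transcription factors TFEB, TFE3 and MITF bind E-box motifs near the start of many lysosomal genes, and stress on lysosomes is known to bring these factors into the nucleus, where the genes of the whole organelle can be raised together. In T cells the organelle is also the source of secretory granules.

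The lysosomal genes described here are 40 genes picked by name out of the 26485 gene symbols counted in the study. They comprise 18 hydrolases (one of them, PSAP, a hydrolase activator), 6 membrane proteins, 13 subunits of the proton pump and 3 transcription factors. The cells were H9, a human T lymphoma line in long use that the labels call cutaneous, and the libraries were made from their polyadenylated RNA. The control group was 3 libraries of cells given DMSO vehicle, and the PA4 group was 3 libraries of cells given 1 µM PA4 for 24 h. The series title speaks of a berbamine derivative for lymphoma, PA4 is a code name, and the design text gives the purpose as finding how PA4 causes cell death. Both groups were grown in RPMI 1640 with 10% serum and antibiotics. A single cell line, dose and time were studied. Whether replicates were grown as separate cultures is not stated in the labels. The p-values therefore speak only of the spread among these libraries, which may be technical, and in bulk RNA fewer cells of a kind and less RNA per cell cannot be told apart.

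Library totals ranged from 18282212 to 22875191 counts, of which the lysosomal genes took 0.206 to 0.213%. The 8 T cell markers summed to 13947 to 17919 counts per library, and the gene of the T cell receptor subunit CD3E had 2099 to 2529. Summed counts were 353 to 422 in control and 356 to 489 with PA4 for 5 B cell markers, 193 to 232 and 166 to 221 for 5 natural killer cell markers, and 2567 to 2603 and 2591 to 3199 for 5 epithelial markers, mostly EPCAM in the last case. They were 6 to 11 and 6 to 17 for 7 myeloid markers, 12 to 20 and 16 to 28 for 5 fibroblast markers, and 1 to 2 and 0 to 2 for 5 markers of pluripotent stem cells, a check made because a stem cell line is also called H9. Myeloid cells, which are rich in lysosomes, were thus near 0 by these markers in both groups, with 4 of the 7 at 0 in every library. The part of other cell types in the results was not tested. HMGCS1 and INSIG1 are given because earlier results on these libraries had shown them changed, so they do not measure what could be detected. The sterol synthesis gene HMGCS1 was at 327, 347 and 362 CPM (counts scaled to the size of the library) in control. With PA4 it was at 672, 668 and 669 CPM, and it rose 1.94-fold with an edgeR adjusted p of 8.62e-11. INSIG1, a regulator of sterol sensing, was at 127, 129 and 133 CPM against 217, 211 and 212 CPM, and rose 1.64-fold with an adjusted p of 7.71e-09.

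Motifs bound by TFEB and its relatives were looked for in the RefSeq promoter windows of GRCh38.p14, which run from 250 bases before to 50 after a gene's start. Windows were found for 28 of the 40 genes. The motifs were CACGTG, TCACGTGA and the full CLEAR element of 10 bases, which adds a G before and a C after TCACGTGA, each motif contained in the next and each its own reverse complement, so that both strands were read at once. CACGTG lay in the windows of 12 of the 28 lysosomal genes (42.9%), against 8.77% of all genes with a window and 12.9% of those tested for expression. TCACGTGA lay in 7 of the 28 (25%), against 1.18% and 2.25%, and the full element in 3 of the 28 (10.7%), against 0.421% and 0.906%. A match is a description of the letters, not a measured binding site. The genes were picked by name as lysosomal, a group already known for such motifs, so their higher shares are not a test.

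The 100 bases before the start are shown for the 7 genes with TCACGTGA, since these are the genes in which a shared response to the TFEB family would be looked for first. They are written 5′ to 3′ on the strand of the gene, with matches to any of the motifs in capitals.
MCOLN1, chr19:7522524-7522623, plus strand: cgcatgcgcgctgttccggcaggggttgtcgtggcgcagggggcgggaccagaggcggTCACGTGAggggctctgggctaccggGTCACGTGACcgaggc
GAA, chr17:80101481-80101580, plus strand: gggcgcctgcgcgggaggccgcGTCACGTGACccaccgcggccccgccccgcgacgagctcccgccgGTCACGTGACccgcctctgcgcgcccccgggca
ATP6V1G1, chr9:114587669-114587768, plus strand: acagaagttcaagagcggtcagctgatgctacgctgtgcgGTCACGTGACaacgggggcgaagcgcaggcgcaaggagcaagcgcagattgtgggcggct
ATP6V0D1, chr16:67481158-67481257, minus strand: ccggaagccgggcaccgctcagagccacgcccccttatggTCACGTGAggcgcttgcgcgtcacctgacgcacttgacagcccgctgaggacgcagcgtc
LAMP1, chr13:113297139-113297238, plus strand: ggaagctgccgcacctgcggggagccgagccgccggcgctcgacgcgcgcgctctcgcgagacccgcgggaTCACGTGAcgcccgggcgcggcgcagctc
CTSA, chr20:45891235-45891334, plus strand: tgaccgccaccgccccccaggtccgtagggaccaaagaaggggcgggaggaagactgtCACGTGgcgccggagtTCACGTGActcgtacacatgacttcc
CLCN6, chr1:11806091-11806190, plus strand: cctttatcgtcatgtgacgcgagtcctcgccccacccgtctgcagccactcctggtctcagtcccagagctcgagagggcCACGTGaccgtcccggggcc
The full element was present 2 times in the window of GAA, 33 and 78 bases before the start, and 1 time each in those of MCOLN1 and ATP6V1G1. The TCACGTGA of CLCN6 lay just past the start and is not within the bases shown. LAMP1 had 6 copies of CACGTG in its window, one of them across the start itself.

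Transcripts of most parts of the lysosome were abundant in H9 cells, and levels between genes were compared as TPM, which divide the counts by gene length. Each of the 13 subunits of the proton pump was at a mean of 29.5 to 172 TPM over the 6 libraries. The hydrolases spread more widely than the pump, from PSAP, the precursor of the saposins that help lipid hydrolases, at 181 TPM, to CTSL at 0. Their sum was 662, 653 and 627 TPM in the control libraries and 651, 652 and 630 TPM in the PA4 libraries, and that of the pump 1140, 1150 and 1110 TPM against 1110, 1120 and 1120 TPM. Membrane proteins summed to 332, 333 and 330 TPM in control and 333, 327 and 323 TPM with PA4, and the transcription factors to 22.5, 19.3 and 19.7 TPM against 20.2, 22.4 and 21.0 TPM. The ratios of the group means were 0.986 to 1.03 over the 4 classes, and in each class the ranges of the groups overlapped.

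**Figure D1:**
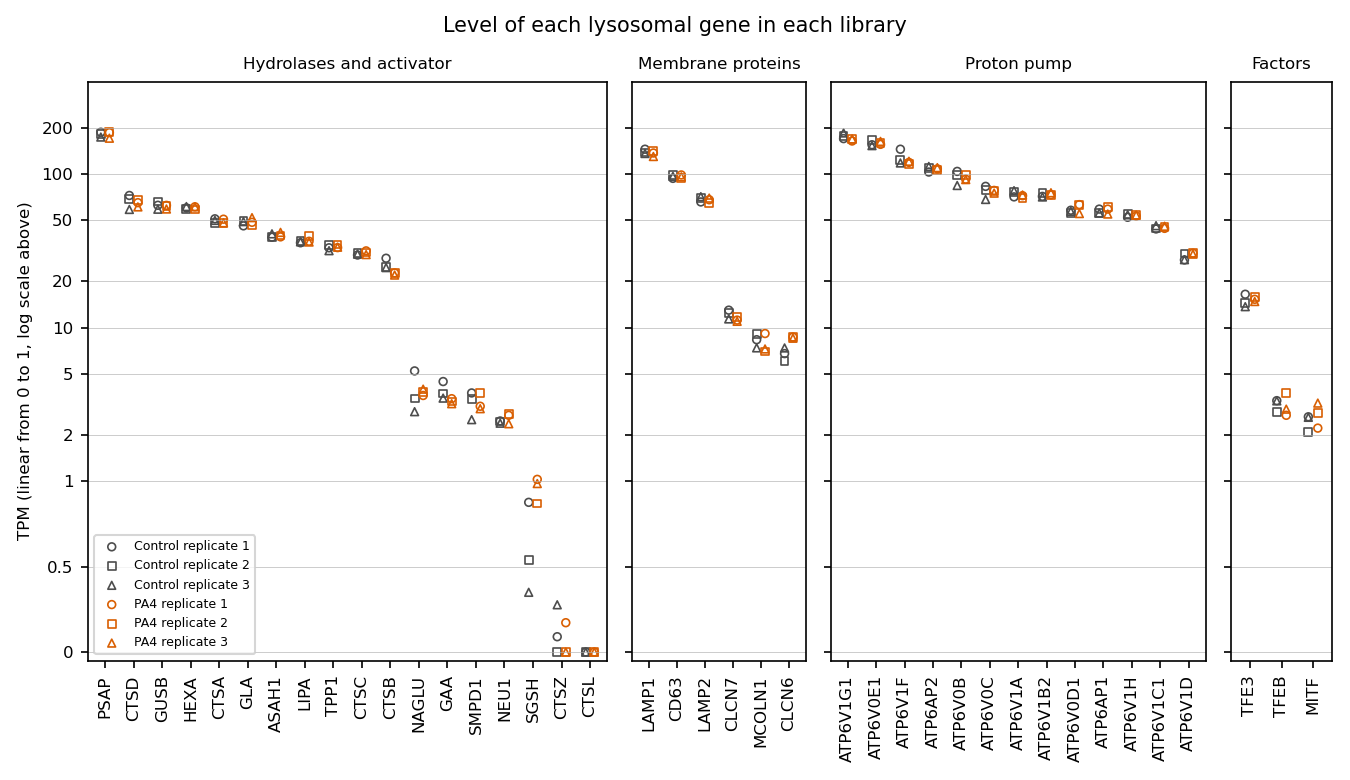
TPM of the 40 lysosomal genes in each of the 6 libraries (control grey, PA4 orange, one symbol per replicate), ordered by mean level within each class, on an axis that is linear up to 1 TPM and logarithmic above. With the deposited lengths, PSAP, LAMP1 and ATP6V1G1 led the hydrolases, membrane proteins and pump at means of 181, 138 and 172 TPM. CTSL and CTSZ lay at or near 0.

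Among the proteases, CTSD, an aspartic protease, was the most abundant at a mean of 65.7 TPM. It was followed by CTSA, a carboxypeptidase that also protects the sialidase, at 49.3 TPM, TPP1, a tripeptidyl peptidase, at 33.5 TPM, CTSC, which activates granule proteases of lymphocytes, at 30.5 TPM, and CTSB, a cysteine protease, at 24.2 TPM. The cysteine protease gene CTSL had 0 counts in all 6 libraries, which allows up to 3 counts, or 0.132 to 0.164 CPM per library. CTSZ had 0 to 3 counts. Neither was tested, and no fold is given for them.

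Of the enzymes of glycan breakdown, GUSB, the beta-glucuronidase, HEXA, the alpha subunit of hexosaminidase, and GLA, the alpha-galactosidase, stood at means of 61.9, 60.3 and 48.6 TPM. NAGLU and SGSH, which act in turn on heparan sulfate, were far lower at 3.83 and 0.775 TPM, as was GAA, the glycogen-degrading alpha-glucosidase, at 3.61 TPM. The length that the file gives for NEU1, the sialidase, is 16568 bases, longer than the whole gene on chromosome 6 (31857659 to 31862821 in GRCh38), so its 2.52 TPM is too low by an unknown amount. Its level is better given in CPM, 15.4 ± 0.376 for the control libraries and 16.5 ± 1.35 for the PA4 libraries (SD, 3 libraries each). For lipids, ASAH1, the acid ceramidase, and LIPA, the acid lipase that frees cholesterol from its esters, had 39.8 and 36.8 TPM, whereas SMPD1, the acid sphingomyelinase, had 3.26 TPM.

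LAMP1, CD63 and LAMP2, the abundant glycoproteins of the membrane, stood at 138, 96.3 and 68.2 TPM. The length the file gives for LAMP2, 9388 bases, is above its 5526 exon bases in GENCODE 29. In CPM LAMP2 was above LAMP1, with control means of 247 and 135, so their order in TPM rests on the deposited lengths. The ion channels and exchangers were lower. CLCN7, a chloride and proton exchanger of lysosomes, had 11.8 TPM, MCOLN1, a cation channel that releases calcium from lysosomes, 8.05 TPM, and CLCN6, an exchanger of late endosomes, 7.70 TPM.

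In the V1 sector of the pump, which splits ATP, ATP6V1A and ATP6V1B2, the genes of the alternating A and B subunits, had nearly equal levels of 73.3 and 73.2 TPM. The stalk subunits ATP6V1G1, ATP6V1F and ATP6V1D had 172, 124 and 29.5 TPM, and ATP6V1H and ATP6V1C1, which act in the control and assembly of the pump, 53.9 and 44.9 TPM. In the V0 sector, which carries protons through the membrane, ATP6V0E1 had 159 TPM, the ring subunits ATP6V0B and ATP6V0C 94.9 and 76.8 TPM, and ATP6V0D1, which links the sectors, 58.6 TPM. The accessory subunits ATP6AP2 and ATP6AP1 had 108 and 57.6 TPM. Subunit forms outside the 40 genes that are known from kidney or bone were near 0. ATP6V1B1 and ATP6V0D2 had 0 counts in the 6 libraries together, ATP6V0A4 1 count, ATP6V1G3 2 and ATP6V1C2 10, and TCIRG1, the form of the a subunit used in osteoclasts, had 0.763 TPM, whereas the a subunit genes ATP6V0A2 and ATP6V0A1 had 31.3 and 27.8 TPM.

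Of the 40 lysosomal genes, 38 had enough counts to be tested, and edgeR's quasi-likelihood test called 0 of them with PA4 at an adjusted p under 0.05. Of all 12107 tested genes 0.231% were called, 0.215% higher and 0.0165% lower. Limma-voom also called 0 of the 38. DESeq2 called 0 too, but it gave no adjusted p for SGSH, SMPD1, NAGLU, TFEB, GAA, MITF and MCOLN1, so it could not call these. At an unadjusted p under 0.05 there were 3 of the 38, CLCN6 and SGSH higher and CTSB lower, or 7.89%, against 5.29% of all tested genes (2.69% higher and 2.6% lower). DESeq2 gave 2 and limma-voom 3 at that level. The groups did not overlap in CPM in 3 genes (7.89%), with PA4 above for CLCN6 and below for CTSB and ATP6V1G1. Over all tested genes this share was 11.2%, 5.91% with PA4 above and 5.31% with PA4 below. The median log2 fold change of the 38 was 0.0035, beside -0.0040 over all tested genes, with 21 values above 0 and 17 below, where 47.6% of all tested genes lay above 0.

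Class medians lay near 0. That of the 16 tested hydrolases was 0.011, with single values from -0.23 to 0.69, that of the 6 membrane proteins -0.031, from -0.11 to 0.36, and that of the 13 pump subunits 0.0040, from -0.12 to 0.093. The 3 transcription factors had a median of 0.045, from -0.0052 to 0.16. For each of the 13 pump subunits the 95% interval stayed under a 25% increase and above the matching decrease. Over all 38 genes this held for 29 (76.3%), against 71.7% of all tested genes, and an interval under 1.5-fold either way was found for 37 (97.4%), against 87.1%, with SGSH as the exception. Among the 31 whose mean reached 10 CPM, the 29 within the 25% bound (93.5%) compare with 95.6% of tested genes at that level, and the 2 exceptions were CLCN6 and CTSB. The 7 genes under 10 CPM were SGSH, SMPD1, NAGLU, TFEB, GAA, MITF and MCOLN1, and for each of them the comparison could not place the change within that bound.

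**Figure D2:**
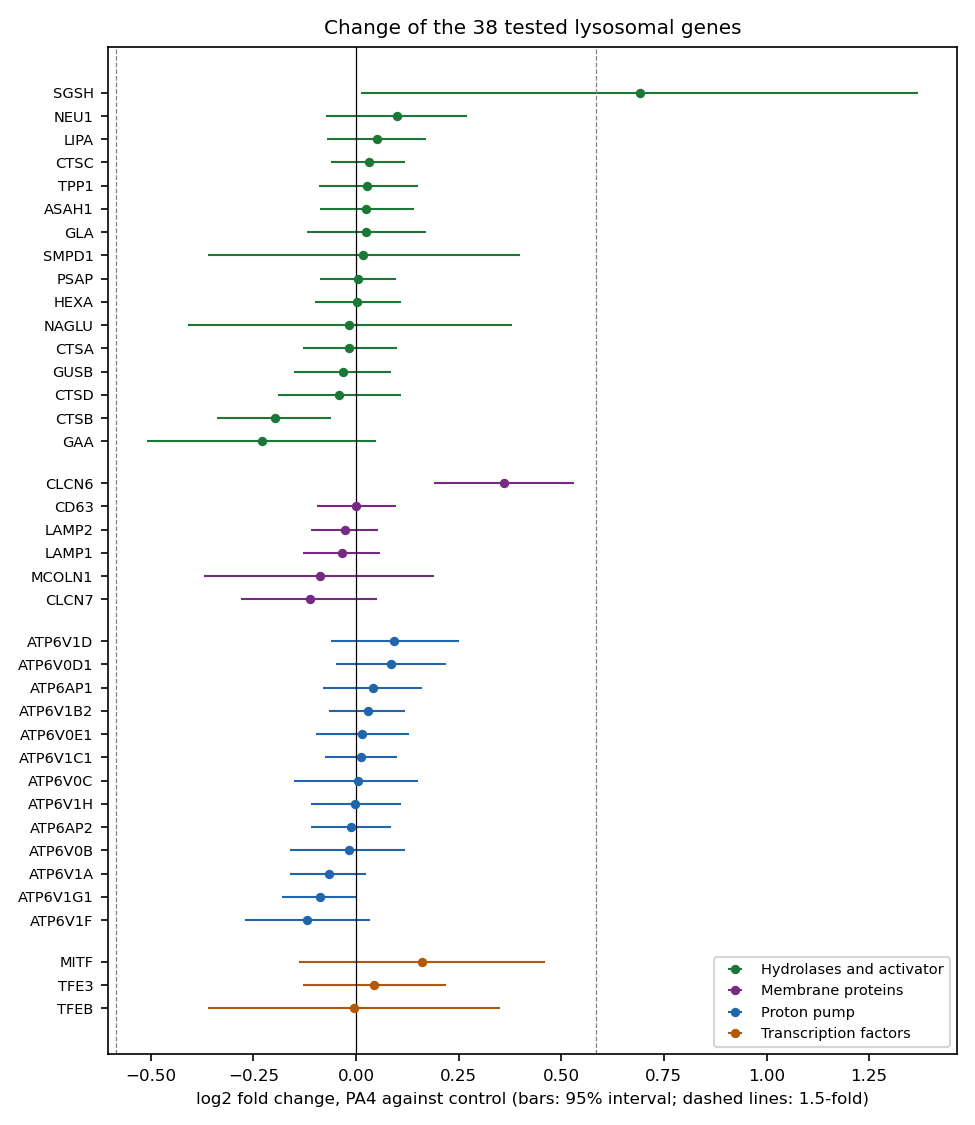
Log2 fold change of the 38 tested lysosomal genes, PA4 against control, with 95% intervals from edgeR, grouped by class; dashed lines mark 1.5-fold in both directions. All 13 pump subunits lie between -0.12 and 0.093, CLCN6 stands apart at 0.36 among the membrane proteins, and SGSH, a gene with 7 to 22 counts, has the widest interval.

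CLCN6 had the lowest p of the 38 genes. It stood at 14.9, 13.4 and 16 CPM in the control libraries and 19.0, 19.1 and 18.6 CPM in the PA4 libraries. The groups did not overlap, and the PA4 libraries lay closer together: the group means were 14.7 ± 1.3 and 18.9 ± 0.274 CPM (SD over 3 libraries). The fold change was 1.28, with a 95% interval of 1.14 to 1.45, or 0.36 ± 0.081 log2 (SE), and the adjusted p was 0.128 by edgeR, so the gene was not called. In 14 alternative settings the fold change was positive each time, 0.29 to 0.42 log2, and the gene was called in 5 of them, with adjusted p-values over the 14 of 0.0106 to 0.775. The call appeared without control replicate 3, at 0.0202, whereas leaving out control replicate 2 gave 0.775. CLCN6 lies on chromosome 1 at 11806191 to 11843130 (GRCh38) and shares 286 exon bases (3.5% of its own in GENCODE 29) with NPPA on the other strand, which had 0 to 1 counts. NPPA-AS1, a transcript named as antisense to NPPA, had 10 to 18 counts against 257 to 435 for CLCN6.

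CTSB, a cysteine protease, had the second lowest p of the 38. Its values were 43.3, 37.7 and 37.2 CPM in control and 34.8, 34.8 and 33.5 CPM with PA4. The groups did not overlap, and control replicate 1 was far above the rest. The fold was 0.872, with a 95% interval of 0.792 to 0.960 and an adjusted p of 0.658. Without control replicate 1 the difference shrank from -0.20 to -0.12 log2, and over the alternatives the adjusted p was 0.0564 to 1. Among the other proteases, CTSD stood at 59.1, 56.0 and 47.4 CPM in control and 53.1, 55.1 and 49.4 CPM with PA4, overlapping fully, with an adjusted p of 0.995. The log2 fold changes of CTSC, TPP1 and CTSA were 0.031, 0.027 and -0.018, each with a standard error of 0.044 to 0.056. The other list of lysosome genes holds 5 more tested cathepsins, given here after their values were seen. CTSH, at 10.7, 10.6 and 9.5 CPM in control and 8.42, 9.34 and 9.04 CPM with PA4, and CTSS, at 34.7, 33.3 and 36.4 CPM against 32.5, 32 and 32.7 CPM, were lower in all 3 PA4 libraries, with adjusted p-values of 0.949 and 0.976. CTSW was at -0.092, CTSO at 0.1 and CTSK at 0.13 log2, with overlapping groups. Of the 122 tested genes of that list, the groups did not overlap in 9.84%, with PA4 above in 9 genes and below in 3. Over all tested genes 5.91% had PA4 above and 5.31% below.

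SGSH, the heparan sulfamidase, had few reads, with 18, 11 and 7 counts in control and 22, 21 and 19 with PA4. In CPM this was 0.932, 0.572 and 0.367 against 1.09, 0.921 and 1.04, so control replicate 1 lay within the PA4 range. The fold of 1.61 had a 95% interval of 1.01 to 2.58 and an adjusted p of 0.943. Without control replicate 1 it was 1.1 log2 in place of 0.69, and without control replicate 3 it was 0.43. Control replicate 3 alone was under the minimum of 10 counts of the filter on low counts. NAGLU, which acts on the same glycan, was at 5.59, 3.69 and 2.99 CPM in control and 3.86, 4.08 and 4.22 CPM with PA4. All 3 PA4 values lay between the middle and the highest control value, and the fold was 0.989 (0.753 to 1.30). Its log2 fold change went from -0.20 to 0.28 when 1 library was left out, the lowest without control replicate 3 and the highest without control replicate 1. GAA, the lowest of the hydrolases at -0.23 ± 0.13 log2 (SE), had 6.47, 5.41 and 4.99 CPM in control and 5.00, 4.78 and 4.60 CPM with PA4, with groups that met at 4.99 and 5.00. Without control replicate 1 its difference was -0.12 log2, the same as that of CTSB.

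Some of these genes share exon bases with a neighbour in GENCODE 29, and the counts of the overlap cannot be assigned with certainty. The share was 23.7% for ATP6V1F with KCP, which had 0 to 3 counts, and 17.7% for CTSA with NEURL2, which had 1 to 6 counts. It was 6.33% for ATP6V1D with EIF2S1, whose counts are not given here. For ATP6V0C and CTSD it was 57.5% and 41.7% with unnamed transcripts on the same strand. For CLCN7, NAGLU, TPP1 and HEXA the largest share was 13.8%, 12.6%, 11.6% and 10.1%, also with unnamed transcripts. Other shares are not listed here.

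The most abundant hydrolase gene in TPM, PSAP, was at 203, 198 and 186 CPM in control and 202, 202 and 185 CPM with PA4. Its fold was 1.00, with an interval of 0.941 to 1.07. The lipid enzymes LIPA, ASAH1 and SMPD1 were at 0.052, 0.025 and 0.018 log2. LIPA, which supplies cells with cholesterol from lipoproteins, had 38.3, 39.1 and 38.4 CPM in control and 39.2, 42.3 and 38.4 CPM with PA4, and the groups overlapped. Its fold was 1.04 (0.953 to 1.13).

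**Figure D3:**
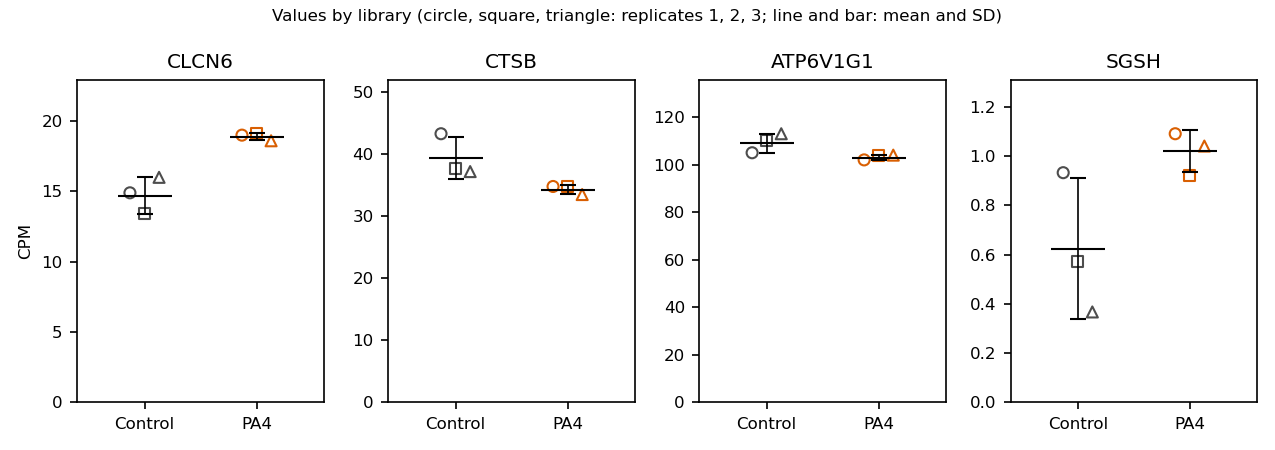
CPM of CLCN6, CTSB, ATP6V1G1 and SGSH in each library, with the mean and SD of each group of 3; axes start at 0. CLCN6 is higher in all 3 PA4 libraries (18.6 to 19.1 against 13.4 to 16 CPM), CTSB and ATP6V1G1 are lower in all 3, and SGSH overlaps between the groups.

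The classical markers of the membrane did not differ detectably. LAMP1 was at 141, 134 and 131 CPM in control and 134, 137 and 126 CPM with PA4, a fold of 0.977 (95% interval 0.917 to 1.04). CD63 was at 74.1, 77.9 and 75.4 CPM against 78.0, 74.2 and 75.3 CPM, a fold of 1.00 (0.935 to 1.07). In each of these pairs the ranges overlapped. LAMP2, needed for autophagosome fusion and for one route of protein uptake, had a fold of 0.981 (0.928 to 1.04). Among the ion carriers CLCN7 moved the other way from CLCN6, at 21.0, 20.1 and 18.3 CPM in control and 18.2, 19.0 and 17.8 CPM with PA4, a fold of 0.925 (0.826 to 1.04) that was not called. MCOLN1, a much-used readout of TFEB activity, had 6.73, 7.33 and 5.88 CPM in control and 7.38, 5.61 and 5.81 CPM with PA4, and the PA4 values spanned the control range.

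In the proton pump ATP6V1G1 had the lowest p. Its values were 105, 110 and 113 CPM in control and 102, 104 and 104 CPM with PA4, so the groups stood apart by a narrow gap. The fold was 0.941 (0.884 to 1.00) and the adjusted p 0.961. ATP6V1F had the lowest log2 fold change of the pump, -0.12 ± 0.072 (SE), from 45.4, 38.6 and 36.5 CPM in control and 37.3, 36.1 and 37.8 CPM with PA4, with control replicate 1 high and the rest mixed. ATP6V1D had the highest, 0.093 ± 0.072 (SE), at 19.2, 21.1 and 19.0 CPM against 21.1, 21.2 and 20.7 CPM. ATP6V1H was at 47.2, 49.8 and 48.4 CPM in control and 48.1, 48.6 and 48.3 CPM with PA4, and ATP6V0C at 39.3, 37.2 and 31.9 CPM against 36.9, 36.5 and 35.2 CPM. In both of these the PA4 values lay inside the control range. By sector, the median log2 fold change was 0.0090 for the 4 V0 subunits, -0.0021 for the 7 V1 subunits and 0.015 for the 2 accessory subunits, and no call fell in either sector.

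The transcription factors were lower in level, and TFE3 was the most abundant of them in TPM. TFE3 was at 21.9, 19 and 18 CPM in control and 20.3, 20.9 and 19.5 CPM with PA4, a fold of 1.03 (0.915 to 1.16). TFEB was at 3.52, 2.96 and 3.46 CPM against 2.82, 3.95 and 3.07 CPM, a fold of 0.996 (0.781 to 1.27). MITF was at 6.16, 4.89 and 6.04 CPM against 5.2, 6.45 and 7.51 CPM, a fold of 1.12 (0.906 to 1.38). The groups overlapped in each of the 3. Activity of these factors is set largely by their phosphorylation and location, which RNA levels do not show.

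The genes with TCACGTGA in their promoter windows gave no common direction. Their 7 log2 fold changes had a median of -0.034 and 2 lay above 0, beside a median of 0.018 and 12 above 0 in the 19 other tested genes with a window. Among the tested genes with a window, the highest, CLCN6 at 0.36, and the lowest, GAA at -0.23, both carried the motif. SGSH, at 0.69 the highest of all the tested lysosomal genes, and CTSB, at -0.2, had no window, so their motifs are not known here. ATP6V0D1, with 37.3, 35.6 and 36.2 CPM in control and 40.5, 39.9 and 35.2 CPM with PA4, was the other gene above 0, and its groups overlapped. The 3 genes with the full element, MCOLN1, GAA and ATP6V1G1, were all below 0, with a median of -0.087 log2 and no call among them.

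Control replicates 1 and 3 were the pair of libraries that differed most over all genes. They were more than 1.2-fold apart in 9 of the 38 lysosomal genes (23.7%), near the 22.3% of all tested genes with a GC value. The group means of PA4 and control were that far apart in 2 of the 38 (5.26%), CLCN6 and SGSH, against 7.14% of those genes, and means of 3 libraries vary less than single libraries. NAGLU was 1.87-fold, SMPD1 1.51-fold and GAA 1.30-fold higher in control replicate 1 than in control replicate 3, whereas for ATP6V1A and ATP6V1G1 this ratio was 0.923 and 0.928. Across the 38 genes this ratio followed the GC content of the longest GENCODE 29 transcript, with a Spearman rho of 0.78 (0.63 over 11438 tested genes). That is a description across genes that share the same 2 libraries. The 8 genes with 60% GC or more, ATP6V0C, CLCN7, CTSA, CTSD, GAA, MCOLN1, NAGLU and SMPD1, were all higher in control replicate 1, by a median of 1.24-fold, and 4 of the 11 genes under 45% GC were. For PA4 against control, rho was -0.24 across the 38 genes and -0.042 over all tested genes with a GC value. With offsets that correct for GC content, 1 of the 38 genes was called, CLCN6, at an adjusted p of 0.0108 and the same 0.36 log2. Over all 12107 tested genes that setting called 114, against 28 without the offsets. Beyond this the part of GC content in the results was not tested.

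**Figure D4:**
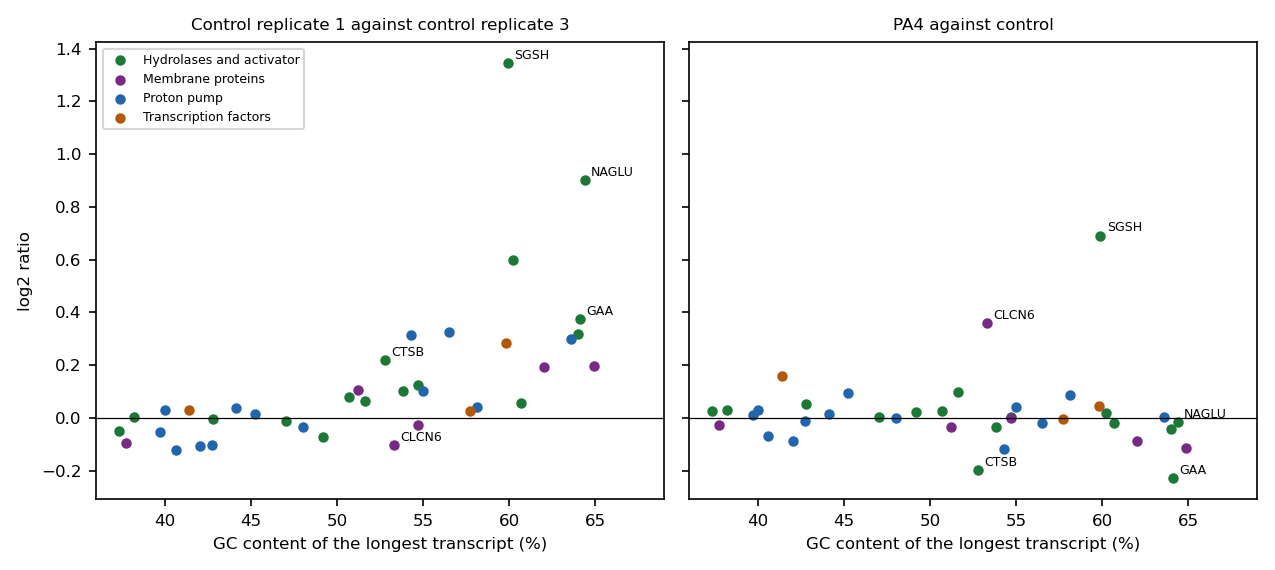
Log2 ratio of CPM in control replicate 1 to control replicate 3 (left) and log2 fold change of PA4 against control (right), each plotted against the GC content in percent of the longest transcript for the 38 tested lysosomal genes. The left ratios climb with GC content (Spearman rho 0.78), while on the right most points lie near 0 and CLCN6, SGSH, CTSB and GAA lie farthest out.

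A further 132 lysosome genes were listed by role, and 122 of them were tested. In edgeR 0 were called in either direction, and 3 had an unadjusted p under 0.05, NPC1 and PI4K2A above control and TPCN1 below it, or 2.46% against 5.29% of all tested genes. By role, 0 of 34 other enzymes, 0 of 32 other membrane proteins, 0 of 13 other pump subunits and assembly factors, 0 of 7 genes of enzyme delivery, 0 of 18 regulators and 0 of 18 genes of the response to lysosomal damage were called. DESeq2 and limma-voom called 0 of the 122 as well, with 1 and 3 at an unadjusted p under 0.05. DESeq2 gave an adjusted p for 8821 of the 12107 tested genes, and how many of the 122 were among them is not given here. The medians of these 6 groups were between -0.0092 and 0.015 log2.

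NPC1, which moves cholesterol out of lysosomes, was the other lysosome gene with the lowest p. It was at 78.0, 74.5 and 77.2 CPM in control and 81.6, 83.9 and 83.3 CPM with PA4, with groups that did not overlap, a fold of 1.08 (1.02 to 1.16) and an adjusted p of 0.827. Its partner NPC2 was at 0.016 ± 0.11 log2 (SE). TPCN1, a cation channel of endosomes and lysosomes, was at 50.8, 51.6 and 51.3 CPM against 46.1, 49.4 and 44.9 CPM, lower in all 3 PA4 libraries, with a fold of 0.914 (0.845 to 0.989) and an adjusted p of 0.879. PI4K2A, a lipid kinase recruited to damaged lysosomes, was at 32.6, 30.7 and 31.5 CPM against 32.9, 35.3 and 35.8 CPM, a fold of 1.1 (1 to 1.2) with an adjusted p of 0.943. None of the 3 was called in any of the 14 alternatives. Galectins that coat damaged lysosomes were not called either, with LGALS3 at 0.20 ± 0.14, LGALS8 at 0.097 ± 0.051 and LGALS9 at -0.037 ± 0.067 log2 (SE).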

How the data were processed

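Raw read counts per gene, not normalized and not pooled, were deposited by the authors with the length of each gene model. The submitters' processing notes name Trimmomatic 0.39, fastp 0.23.2, STAR 2.7.9a and featureCounts (Subread 1.6.4), with build hg38. Annotation and strand setting: not given in the sources used here. Reads of overlapping genes may therefore not be told apart. All 6 libraries were fitted in R 4.3.3 with edgeR 4.0.16: filterByExpr (12107 genes kept), TMM, estimateDisp, glmQLFit and a two-sided glmQLFTest between the groups, without covariates, with Benjamini-Hochberg adjustment over all tested genes. CPM use TMM-scaled library sizes, and TPM use the deposited lengths. Standard errors come from the F statistic and intervals are 95%. Tested on simulated data for this comparison with 12107 genes, the fit recovered 62% of genes changed by 25% and 86.7% of those changed 1.5-fold. The simulated counts had a spread set by the level of each gene alone. They held no GC-linked differences between libraries, so these shares may be higher than in the real data. All 15 pairs of libraries differed beyond sampling noise (chi-square per degree of freedom 1.48 to 6.81). The members and gene lists were chosen with earlier results of these data known. Genes with full values were those at an unadjusted p under 0.05, the highest, lowest and most abundant of each class, and 9 fixed members. Library values of CD63, NAGLU, LIPA and ATP6V0D1 were added after their values were seen. Alternatives were DESeq2 1.42.0, limma-voom (limma 3.58.1), other scalings, no filter, a replicate block, GC-corrected offsets and each library left out.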

Additional observations from a re-analysis of the deposited data

How the results depend on the processing

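Against 0 lysosomal genes called, the count was 1 with no low-count filter, 1 with the replicate block, 1 with GC-corrected offsets, 1 with the replicate block and GC-corrected offsets together, and 0 to 1 when 1 library was left out (1 without control replicate 3). The gene was CLCN6 each time, and the block changed no other call among the 40. Over all genes the 28 calls became 62 with no filter, 59 with the block, 114 with GC-corrected offsets, 127 with both, and 17 to 74 when 1 library was left out. The replicate numbers share no stated source. For libraries with the same number, deviations from the group means had correlations of 0.047, -0.0092 and 0.17, and control replicate 1 correlated better with PA4 replicate 2 (0.14), so the numbers were not taken as pairs. At an unadjusted p under 0.05 the lysosomal genes numbered 2 to 7 over the 14 alternatives, against 3.

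The class medians moved by less than the spread between libraries in each setting, except that of the membrane proteins without PA4 replicate 2, with a range of -0.038 to 9e-07 when 1 library was left out. Of 22 named genes, 7 with values near 0 changed sign in some setting, none of them called. Outside that count, NAGLU, SMPD1, CD63, ATP6AP2, ATP6V0B, ATP6V0E1, CTSA, GLA, GUSB, HEXA, LAMP2 and TPP1 also changed sign. Over the 14 alternatives NAGLU ranged from -0.20 to 0.28, SMPD1 from -0.14 to 0.14 and CD63 from -0.019 to 0.02. Library size alone gave -0.00096 for PSAP and -0.0021 for ATP6V0C, GC-corrected offsets 0.0042 for TFEB, and no filter 0.0016 for ATP6V1H. Leaving out 1 library gave -0.028 to 0.047 for PSAP, -0.055 to 0.0001 for LAMP1, -0.17 to 0.096 for TFEB, -0.014 to 0.13 for TFE3, -0.13 to 0.026 for CTSD, -0.021 to 0.018 for ATP6V1H and -0.078 to 0.069 for ATP6V0C. The cause was not tested. Depth limits the 7 genes under 10 CPM most, and SGSH, with 7 to 22 counts, above all.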
